A study of Mus musculus with 3 samples.

Results

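Transcripts of 10 genes that mark trophoblast and placenta were examined in E8.75 mouse embryos, early in organ formation. The genes were Prl3d1, Prl2c2, Prl3b1, Prl7a1, Tpbpa, Plac1, Ascl2, Gcm1, Psg17 and Ctsq, as a guide to how much extraembryonic tissue the dissected material held. Their probes were found by name alone, but the genes, and the wider lists below, were chosen with earlier results of these data known. Probes were found for 9 of the 10 genes, 13 of the 55681 probes on the array. No probe was matched to Prl2c2, which was not analysed here. Of the 9 genes, 6 had a probe well above background and were among the 23555 genes and other transcripts tested.

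Each of 3 Agilent arrays with 2 colours set RNA labelled Brpf1-deficient, in the Cy5 (red) channel, against RNA labelled wild-type, in the Cy3 (green) channel. Pairs 1, 2 and 3 are the 3 arrays, a single group. Brpf1 is a scaffold of histone acetyltransferase complexes, and the labels give neither the allele, the strain, nor the number of embryos behind an RNA. All 3 arrays carry the dyes in this orientation, on 1 slide, and genotype cannot be told apart from dye. Ratios are given as log2 of Cy5 over Cy3, background-corrected and loess-normalized within each array. They are above 0 where the Cy5 channel was brighter after that normalization. Spot intensities below are printed before it, so a spot with the higher Cy5 intensity can have a ratio below 0. Brpf1 itself went against the labels: its log2 ratios were 2.01, 1.43 and 1.06 in pairs 1, 2 and 3, so the RNA labelled as deficient gave the brighter spot (mean 1.5 ± 0.19, SE, limma adjusted p = 0.0405, and from 0.0145 to 0.273 under other settings). Where the disruption lies, and whether the 1 probe of Brpf1 covers it, is not given in the sources used here. Every direction below is that of the channels as labelled. Each SE is the moderated one of limma, in which a gene's spread between pairs is drawn towards that of all genes tested. It therefore differs from an SE taken from the 3 ratios of the gene alone.

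The rodent placenta is built by several kinds of trophoblast. Giant cells line the border with the maternal decidua and secrete hormones of the prolactin family. The ectoplacental cone and spongiotrophoblast lie behind them and make Tpbpa and the pregnancy-specific glycoproteins, and the chorion folds into the labyrinth under the control of Gcm1. In RNA from whole tissue, fewer cells of a type and less RNA per cell cannot be told apart.

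The prolactin family genes lie in a cluster on chromosome 13, and the promoters of 3 members are shown because Prl3d1 and Prl7a1 had similar ratios in each pair and Prl3b1, from the same cluster, had others. Each window holds 250 bases before and 50 bases after the RefSeq start of the gene on the GRCm38.p6 build, read 5′ to 3′ on the gene's own strand. Prl3d1 is at chr13:27093939-27094238 on the plus strand, Prl7a1 at chr13:27642444-27642743 on the minus strand and Prl3b1 at chr13:27242180-27242479 on the plus strand. Capitals mark matches, on either strand, to the GATA factor motifs AGATAA and TGATAA and to the AP-1 motif TGANTCA.
Prl3d1: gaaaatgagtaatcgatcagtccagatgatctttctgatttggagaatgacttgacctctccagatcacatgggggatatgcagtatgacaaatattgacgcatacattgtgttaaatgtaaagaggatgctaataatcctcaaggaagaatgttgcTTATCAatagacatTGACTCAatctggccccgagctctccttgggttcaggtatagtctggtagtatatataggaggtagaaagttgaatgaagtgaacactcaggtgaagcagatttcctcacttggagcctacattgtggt
Prl7a1: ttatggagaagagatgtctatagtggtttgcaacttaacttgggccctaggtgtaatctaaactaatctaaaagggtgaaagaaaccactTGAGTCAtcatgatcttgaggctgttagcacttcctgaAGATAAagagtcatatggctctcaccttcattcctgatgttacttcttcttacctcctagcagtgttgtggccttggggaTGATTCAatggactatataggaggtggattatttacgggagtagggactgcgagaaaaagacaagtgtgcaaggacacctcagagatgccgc
Prl3b1: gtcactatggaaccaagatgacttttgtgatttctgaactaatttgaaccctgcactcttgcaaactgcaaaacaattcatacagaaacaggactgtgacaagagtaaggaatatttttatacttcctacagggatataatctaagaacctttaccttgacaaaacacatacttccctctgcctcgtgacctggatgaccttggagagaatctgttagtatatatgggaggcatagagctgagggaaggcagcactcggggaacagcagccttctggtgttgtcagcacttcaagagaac

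The Prl3d1 window held 1 match to TGATAA on the opposite strand, at positions -93 to -88 from the start, and 1 match to TGANTCA at -79 to -73. The Prl7a1 window held 1 match to AGATAA and 2 to TGANTCA, and the Prl3b1 window held none of the 3 motifs. No match overlapped another. Of 32851 promoter windows of the same length, 11.2% held AGATAA, 9.05% held TGATAA and 7.81% held TGANTCA. A match describes the letters of a window and was not tested as a binding site.

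On each array and in each channel, between 49.4% and 59.8% of all probes were well above background, no spot was saturated, and the same 6 of the 9 member genes were detected. Every member probe had 1 spot per array. Across all genes tested the log2 ratios correlated at 0.409 between pairs 1 and 2, 0.335 between pairs 1 and 3 and 0.152 between pairs 2 and 3. Genes are not independent replicates, and these values describe the arrays. In pairs 1 and 3 the RNAs also differed in Y-linked transcripts, chosen after their values were seen. Ddx3y, an RNA helicase gene of the Y chromosome, had log2 ratios of 5.92, -0.23 and -5.23 in pairs 1, 2 and 3. Xist, the RNA of the inactive X chromosome, had -0.04, 0.29 and 2.69, so it differed in the opposite direction to Ddx3y in pair 3 and was close to 0 in pair 1. Whether the sex of the embryos bears on the results below was not tested.

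The giant cell hormone genes Prl3d1 and Prl7a1 differed strongly between the RNAs of each pair, but not in the same direction. Both were lower in the channel labelled Brpf1-deficient in pairs 1 and 2 and several-fold higher there in pair 3. Neither passed the test over 3 pairs, and the mean ratio of each was close to 0 with a large error.

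Prl3d1 encodes placental lactogen I, the main lactogenic hormone of early giant cells, and lies on chromosome 13 from 27094189 to 27100260. The brighter of its 2 probes gave median spot intensities of 2670.5, 978.5 and 5472.5 in the channel labelled Brpf1-deficient of pairs 1, 2 and 3, against 3603, 1637 and 664 in the channel labelled wild-type. The groups overlapped, with pair 3 brightest of the 3 RNAs labelled Brpf1-deficient and dimmest of the 3 RNAs labelled wild-type. The log2 ratios were -1.19, -1.0 and 2.35, which is 0.438-fold, 0.4996-fold and 5.11-fold. The mean was 0.05 ± 0.73 (SE, n = 3 pairs; limma adjusted p = 0.974). The dimmer probe gave -0.97, -0.68 and 2.89, with a mean of 0.41 ± 0.80 (adjusted p = 0.811 over all probes). Both probes therefore showed the same signs in each pair.

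Prl7a1, on chromosome 13 from 27633364 to 27642493, encodes prolactin-like protein E. Its intensities were 1326, 345 and 2951 in the channel labelled Brpf1-deficient of pairs 1, 2 and 3, against 1527, 648 and 268 in the channel labelled wild-type. Its log2 ratios were -0.95, -1.29 and 2.81, with a mean of 0.19 ± 0.83 (SE, limma adjusted p = 0.922). The groups overlapped for both genes, and the same pair 3 carried the single positive ratio. Without pair 3 the mean was -1.10 ± 0.12 for Prl3d1 (adjusted p = 0.105) and -1.12 ± 0.14 for Prl7a1 (adjusted p = 0.113), with 2 pairs left.

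Prl3b1 encodes placental lactogen II, which replaces placental lactogen I later in gestation, and lies on chromosome 13 from 27242430 to 27249683. Its intensities were 435.5, 489.5 and 527.5 in the channel labelled Brpf1-deficient and 235, 272 and 245 in the channel labelled wild-type, before the dyes were put on 1 scale. Its log2 ratios were 0.14, 0.35 and 0.44, positive in 3 of 3 pairs, with a mean of 0.31 ± 0.09 (SE, limma adjusted p = 0.225, unadjusted p = 0.0219). It was the only member tested with the same sign in all pairs, which 43.4% of all genes had, and it did not pass the threshold of 0.05.

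**Figure D1:**
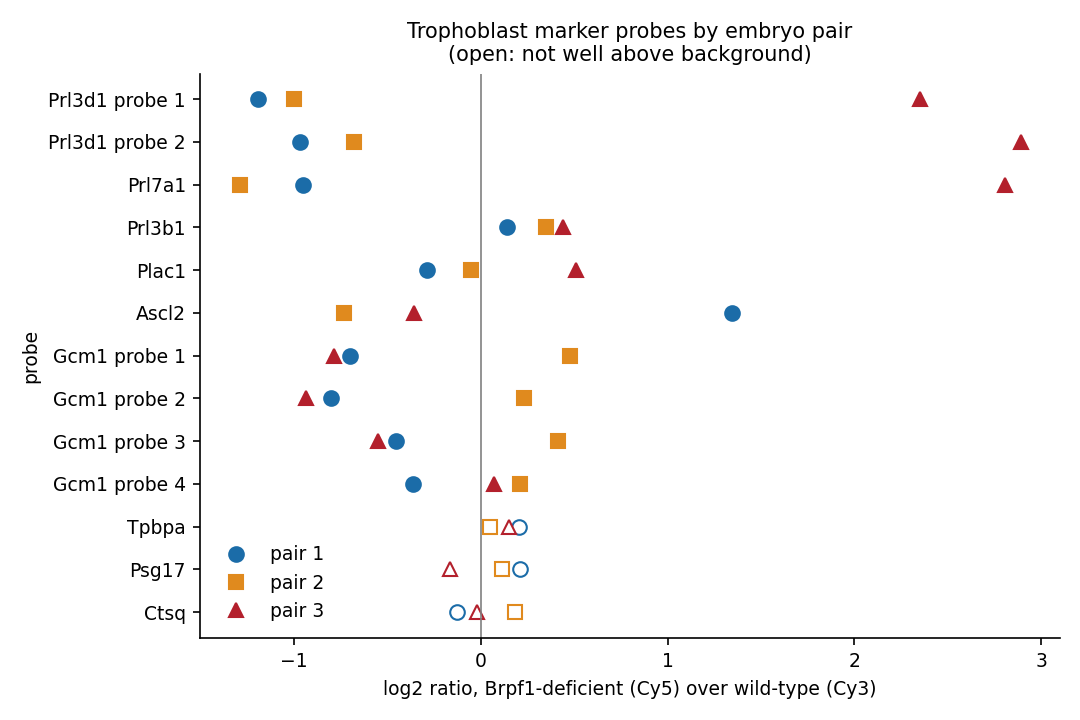
Log2 ratio of Brpf1-deficient (Cy5) over wild-type (Cy3) on the x axis for each of the 13 member probes. Each pair of RNAs has 1 point, open for probes not well above background. Both Prl3d1 probes and Prl7a1 lie between -1.29 and -0.68 in pairs 1 and 2 and between 2.35 and 2.89 in pair 3, while Prl3b1 stays between 0.14 and 0.44.

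RNAs of the same label also differed from each other several-fold in Prl3d1 and Prl7a1, but little in Prl3b1. After the intensities of all arrays were also brought to 1 scale, the 3 RNAs labelled Brpf1-deficient spanned 2.42 log2 units for Prl3d1, a 5.34-fold range, and the 3 RNAs labelled wild-type spanned 2.26, a 4.77-fold range. For Prl7a1 the ranges were 8.41-fold over the RNAs labelled Brpf1-deficient and 5.16-fold over the RNAs labelled wild-type. For Prl3b1 they were 1.21-fold and 1.06-fold. Its normalized log2 intensities were 8.39, 8.65 and 8.66 in the RNAs labelled Brpf1-deficient. All 3 lay above the 8.25, 8.30 and 8.21 in the RNAs labelled wild-type. The Prl3b1 spots were dim, at 435.5 to 527.5 over a local background of 135 to 198 in the channel labelled Brpf1-deficient. Whether the low signal narrowed its ranges was not tested.

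**Figure D2:**
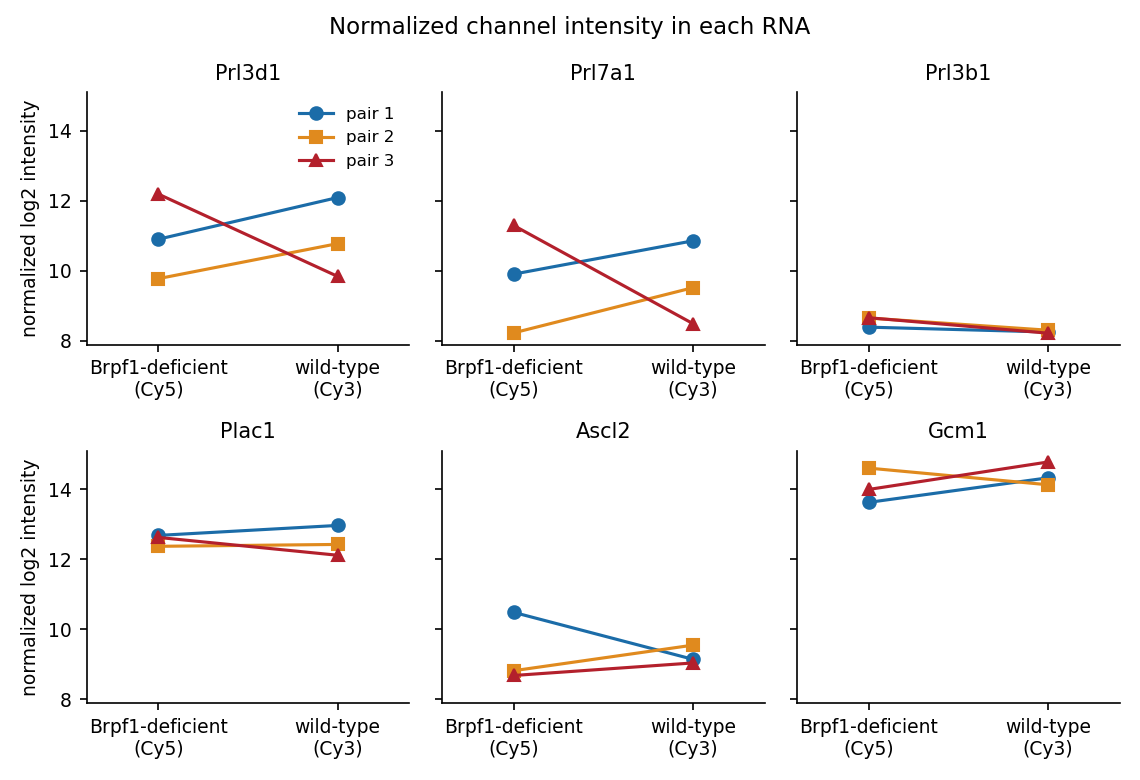
Normalized log2 intensity of the brightest probe of each detected member, Brpf1-deficient (Cy5) left and wild-type (Cy3) right, with a line joining the RNAs of 1 pair. The lines of pair 3 cross those of pairs 1 and 2 for Prl3d1 and Prl7a1, and the 6 values of Prl3b1 lie close together. Heights are not comparable between genes.

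Plac1, Ascl2 and Gcm1, whose products act in the trophoblast rather than leave it as hormones, did not share this pattern as a group. Plac1, an X-linked gene for a protein of the trophoblast surface (X chromosome, 53069993 to 53240110), had intensities of 9579, 5536 and 7452.5 in the channel labelled Brpf1-deficient and 6501, 5127 and 3219.5 in the channel labelled wild-type. Its log2 ratios of -0.29, -0.05 and 0.51 were highest in pair 3, as for Prl3d1 and Prl7a1, but smaller (mean 0.06 ± 0.17, SE, limma adjusted p = 0.881).

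Ascl2 is an imprinted transcription factor gene that the spongiotrophoblast needs (chromosome 7, 142966822 to 142969264). Its intensities were 1930, 577 and 522.5 in the channel labelled Brpf1-deficient and 458.5, 688 and 407 in the channel labelled wild-type. The RNA labelled Brpf1-deficient of pair 1 was the 1 high value. The normalized log2 intensities were 10.48, 8.81 and 8.68 in the RNAs labelled Brpf1-deficient and 9.14, 9.54 and 9.04 in those labelled wild-type. On that scale the RNAs labelled Brpf1-deficient of pairs 2 and 3 lay below all 3 RNAs labelled wild-type. The log2 ratios were 1.34, -0.73 and -0.36, so pair 1 carried the mean of 0.08 ± 0.41 (SE, limma adjusted p = 0.929). Without pair 1 the mean was -0.54 ± 0.16 (adjusted p = 0.444).

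Gcm1, the transcription factor that starts branching of the chorion into labyrinth (chromosome 9, 78051958 to 78065624), had 4 probes. The brightest gave 19325, 27862.5 and 20619.5 in the channel labelled Brpf1-deficient and 15916, 15665.5 and 19540.5 in the channel labelled wild-type. Its log2 ratios were -0.70, 0.48 and -0.78, with a mean of -0.34 ± 0.27 (SE, limma adjusted p = 0.537). Here pair 2 stood on the other side of 0 from pairs 1 and 3. The means of the other 3 probes were -0.50, -0.20 and -0.03, and the dimmest of them was not well above background in the channel labelled Brpf1-deficient of pair 2 and was slightly above 0 in pair 3. Without pair 2 the mean of the brightest probe was -0.74 ± 0.09 (adjusted p = 0.0662).

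Tpbpa, Psg17 and Ctsq were not detected. Tpbpa, which encodes a secreted protein of the cone and spongiotrophoblast, gave 133, 140 and 131 in the channel labelled Brpf1-deficient, where local background was 130, 174 and 145. In the channel labelled wild-type it gave 63, 68.5 and 67 over a background of 46, 54 and 58. Psg17, a pregnancy-specific glycoprotein gene, stayed between 89 and 131 in the channel labelled Brpf1-deficient and between 59 and 65 in the channel labelled wild-type. Ctsq, a placental cathepsin gene of giant cells that line maternal blood spaces, stayed between 88 and 138 and between 57 and 81. None of the 3 was well above background in any channel of any array, so these genes have no measured difference, and a level below the detection of these probes cannot be told from none.

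None of the 6 tested members passed the threshold in either direction, where 1.38% of all genes tested did, 1.29% higher and 0.0934% lower in the channel labelled Brpf1-deficient (limma, Benjamini-Hochberg adjustment over 23555 genes). Over single probes 0.813% of those kept passed, and no member probe did. At an unadjusted p below 0.05 there was 1 member, Prl3b1, where 17.3% of all genes were found. The median log2 ratio of the 6 members was -0.49, -0.39 and 0.48 in pairs 1, 2 and 3, and that of all genes -0.02, -0.04 and -0.01. The median of the members' means was 0.07. In 4 of the 6 members the ratio was highest in pair 3, against 35.7% of all genes. A mean above 0 was found in 5 of the 6 members, against 45.6% of all genes. The counts of each list below stand against these same shares, and against 17.3% at an unadjusted p below 0.05 (limma).

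The standard deviation (SD) of the log2 ratio over the pairs was 2.27 for Prl7a1, 1.99 for Prl3d1, 1.11 for Ascl2 and 0.71 for Gcm1, where the median over all genes was 0.159. Of all genes, 99.97% varied less between pairs than Prl7a1, 99.93% less than Prl3d1, 99.49% less than Ascl2 and 98.09% less than Gcm1. Plac1, with an SD of 0.41, was at the percentile 90.62, and Prl3b1, with 0.16, at 48.68. These percentiles describe the 3 arrays and are not a test.

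**Figure D3:**
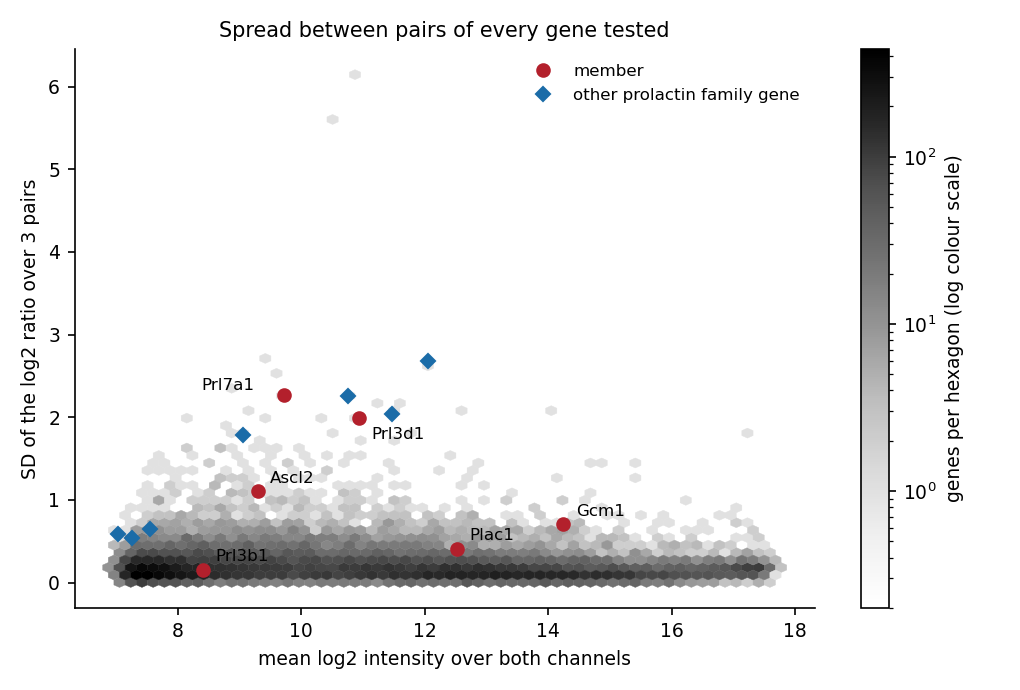
SD of the log2 ratio over 3 pairs against the mean log2 intensity over both channels, for every gene tested in grey, with the 6 tested members as circles and 7 other prolactin family genes as diamonds. Prl7a1 and Prl3d1 lie at 2.27 and 1.99, far above the median of 0.159, and 4 other prolactin family genes lie near them; the 2 genes above 5 are Y-linked.

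The other placental prolactin genes included several with the pattern of Prl3d1. Of 20 on the list, 18 had a probe, 9 were never above background and 7 were tested. None of the 7 passed the threshold, nor an unadjusted p below 0.05, with 4 means above 0, a median mean of 0.05 and a smallest adjusted p of 0.558. In 7 of 7 the ratio was highest in pair 3, against 35.7% of all genes. The medians over the list were -0.84 in pair 1, -0.88 in pair 2 and 2.30 in pair 3.

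Prl2c5, a proliferin gene closely related to Prl2c2, was chosen after its values were seen, as were Prl3d2, Prl2c1 and Prl5a1. Its intensities were 5875, 1552 and 15339.5 in the channel labelled Brpf1-deficient of pairs 1, 2 and 3, against 8421, 4513 and 1119.5 in the channel labelled wild-type, and its log2 ratios were -1.36, -1.73 and 3.08. Prl3d2, a near copy of Prl3d1, had -1.27, -1.20 and 2.67. Prl2c1 had -1.03, -0.88 and 2.57, and Prl4a1 had -0.84, -0.73 and 2.30. The family holds nearly identical transcripts, and which of them each probe can bind was not analysed here, so these ratios are not independent of each other or of Prl3d1. Prl3c1 (0.05, -0.96 and 0.25), Prl6a1 (-0.34, -0.73 and 0.33) and Prl5a1 (-0.28, -0.30 and 0.74) were dimmer. Their ratios were smaller in the main setting but moved with the processing. Under other settings with 3 pairs, Prl5a1 reached -1.30 in pair 1, -1.46 in pair 2 and 2.60 in pair 3. In pair 2, Prl6a1 reached -2.47 and Prl3c1 reached -2.65.

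The promoter of Prl3d2 carried the same arrangement of matches as that of Prl3d1, with TGATAA at -110 to -105, also on the opposite strand, and TGANTCA at -96 to -90. That of Prl2c5 held AGATAA at -163 to -158, and that of Prl4a1 held AGATAA at -242 to -237 on the opposite strand. The motifs were not limited to genes with these ratios in the main setting. Prl6a1 and 1 of the windows of Prl3c1 also held AGATAA, and Prl5a1 held none of the motifs. Of 18 other prolactin genes with a window, 14 held at least 1 of the 3 motifs, 5 of the 6 tested and 9 of the 12 not tested, among them Prl2b1, Prl8a8 and Prl7d1. Of all promoter windows, 24.4% did.

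Summed over the 7 tested prolactin genes, the median spot intensity was 13000.5, 4800 and 31438 in the channel labelled Brpf1-deficient of pairs 1, 2 and 3, against 17025.5, 9671 and 2981 in the channel labelled wild-type. Pair 3 thus gave the highest sum within the channel labelled Brpf1-deficient and the lowest within the channel labelled wild-type. No allowance for the dyes was made in these sums, so they are not compared between channels. None of the 8 other placental cathepsin genes, all relatives of Ctsq, was above background in any channel.

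Among 18 genes of the ectoplacental cone and the pregnancy-specific glycoproteins, 7 were above background on at least 1 array, 11 never were, Tpbpb among them, and 5 were tested under their own names. None passed, 1 had an unadjusted p below 0.05, and 5 of 5 ratios were highest in pair 3, against 35.7% of all genes. The lead of pair 3 was narrow for Psg21 (0.258 against 0.241 in pair 2), Psg23 (0.183 against 0.178 in pair 1) and Psg25 (0.028 against -0.051 in pair 1). It was wider for Psg22 (0.329 against 0.022 in pair 1) and for Psg29. The smallest unadjusted p belonged to Psg21 (0.21 ± 0.08, SE, limma adjusted p = 0.282), followed by Psg23 (0.15 ± 0.08, adjusted p = 0.371) and Psg25 (-0.13 ± 0.11, adjusted p = 0.559). A detected probe that only the authors' deposited table names Psg16 was tested under its accession and is not among the 5. Its log2 ratios were -0.02, -0.51 and 0.10 (mean -0.14 ± 0.14, SE, limma adjusted p = 0.619). Psg29, chosen after its values were seen, had log2 ratios of -0.64, -0.77 and 1.32.

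All 19 regulators of trophoblast stem cells and extraembryonic ectoderm were detected, and none passed the threshold (12 means above 0, median 0.08, 2 with an unadjusted p below 0.05). Their medians were 0.16, -0.14 and 0.18 in pairs 1, 2 and 3. Of the 19 ratios, 9 (47.4%) were highest in pair 3, against 35.7% of all genes. Rhox5, an X-linked homeobox gene of extraembryonic tissue, had 0.37 ± 0.11 (SE, limma adjusted p = 0.224), Tead4, a trophectoderm factor, had 0.22 ± 0.08 (adjusted p = 0.269) and Ets2 had -0.21 ± 0.10 (adjusted p = 0.352). With median centring in place of loess, Rhox5 alone of the list passed (0.71, adjusted p = 0.0445). Several of these genes are also expressed in the embryo, Cdx2 in its tail among them.

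Of 11 genes of labyrinth and syncytiotrophoblast, 10 were tested and none passed (7 means above 0, median 0.11, 1 with an unadjusted p below 0.05). The monocarboxylate transporter Slc16a3 had -0.42 ± 0.12 (SE, limma adjusted p = 0.21), the gap junction gene Gjb2 0.28 ± 0.11 (adjusted p = 0.297) and the transcription factor gene Ovol2 0.28 ± 0.13 (adjusted p = 0.352). Of 7 imprinted or retrotransposon-derived placental genes, 5 were tested and none passed (3 means above 0, median 0.09, 1 with an unadjusted p below 0.05). Sfmbt2, an imprinted Polycomb gene of trophoblast, had 0.34 ± 0.09 by its brightest probe (limma adjusted p = 0.193). Its other detected probes varied more, with ratios of -0.32, 0.82 and 0.15 and of -0.03, 1.15 and 0.24 in pairs 1, 2 and 3. Phlda2, a growth-limiting gene of the placenta, had -0.15 ± 0.08 (adjusted p = 0.381) and the protease inhibitor gene Tfpi2 0.22 ± 0.16 (adjusted p = 0.506).

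Markers of other tissues that a dissected embryo can carry also differed between the pairs. All 11 genes of decidua and uterus, the maternal tissue next to giant cells, were detected, and none passed the threshold (4 means above 0, median -0.15, 0 with an unadjusted p below 0.05). In 11 of 11 the ratio was highest in pair 3, with list medians of -0.26, -0.51 and 0.43 in pairs 1, 2 and 3. Their summed intensity ranged from 47162 to 106839 in the channel labelled Brpf1-deficient and from 38340 to 73462 in the channel labelled wild-type. Several of these genes, such as Dcn and Hoxa10, are also expressed in embryos.

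Prl8a2, a prolactin family gene of the decidua, had intensities of 28830, 3229 and 28469 in the channel labelled Brpf1-deficient of pairs 1, 2 and 3, against 22904, 32432 and 10551 in the channel labelled wild-type. The RNA labelled Brpf1-deficient of pair 2 was low, and the log2 ratios were -0.74, -3.55 and 0.60 (mean -1.23 ± 0.77, SE, limma adjusted p = 0.447). The Prl8a2 ratio was highest in pair 3, as for Prl3d1 and Prl7a1, and farthest from 0 in pair 2, where it was negative. Hoxa10 had a mean of 0.51 ± 0.25 (adjusted p = 0.357) and Htra1 -0.58 ± 0.30 (adjusted p = 0.375). The part of maternal tissue in the trophoblast results was not tested.

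All 16 visceral endoderm genes of the yolk sac and all 6 genes of allantois and chorion were detected. The yolk sac list had 16 means above 0, where 45.6% of all genes had one, and medians of 0.24, 0.50 and 0.48 in pairs 1, 2 and 3. At an unadjusted p below 0.05, 9 of the 16 were found, all higher, where 17.3% of all genes were found in either direction. After adjustment 1 gene was higher, Apoc2 (1.16 ± 0.12, SE, limma adjusted p = 0.0296), a call lost with a loess span of 0.02, with processed signals, with normexp offset 10 and without any 1 pair. Summed over the 16 yolk sac genes, the intensity ranged from 1187880 to 2050498 in the channel labelled Brpf1-deficient. In the channel labelled wild-type the sum ranged from 490845 to 596879. These sums make no allowance for the dyes. The yolk sac medians were thus above 0 in pairs 1 and 2, where the ratios of Prl3d1 and Prl7a1 were below it. In the allantois and chorion list none passed (2 means above 0, median -0.28, 2 with an unadjusted p below 0.05). There 6 of 6 ratios by the brightest probe were highest in pair 3, against 35.7% of all genes. Another detected probe of Vcam1 was highest in pair 2 (-0.51, 0.06 and -0.34 in pairs 1, 2 and 3, mean -0.26), and another of Hoxa13 in pair 3. Hoxd13 had -0.98 ± 0.21 (adjusted p = 0.139), Vcam1, which chorion and allantois use to attach, -0.53 ± 0.19 (adjusted p = 0.27) and Hoxa13 -0.31 ± 0.14 (adjusted p = 0.321).

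**Figure D4:**
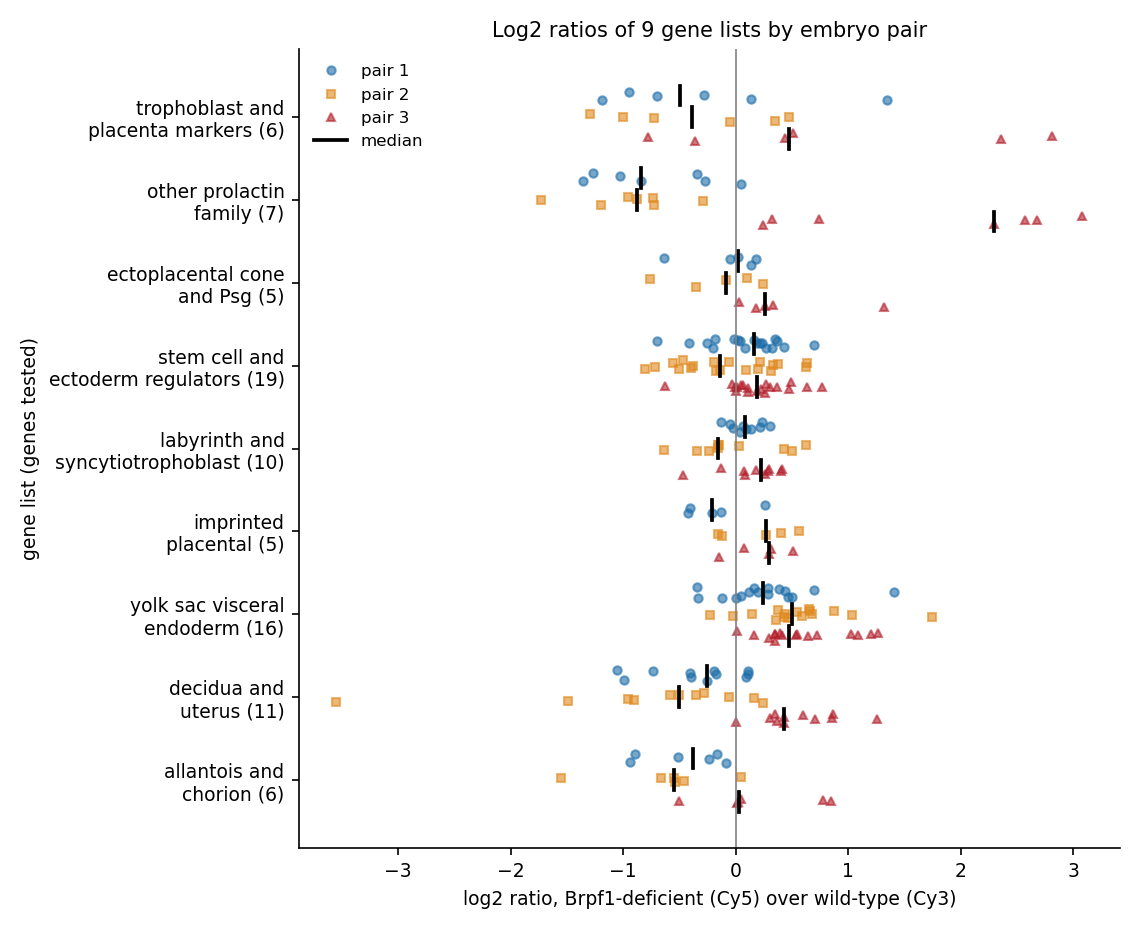
Log2 ratio of Brpf1-deficient (Cy5) over wild-type (Cy3) for the tested genes of 9 lists. Each pair of RNAs has 1 row of points, with a bar at each median. The other prolactin genes have medians of -0.84, -0.88 and 2.30 in pairs 1, 2 and 3, while the yolk sac medians of 0.24, 0.50 and 0.48 are all above 0.

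Likeness in pattern was measured as the Euclidean distance over the 3 log2 ratios, among named genes outside the lists. Nearest to the members' median were Synpo (distance 0.0642), Gbp4, Serpinb9, Inhba and Spink8, the last at 0.121, and none of them passed the threshold. Because the members differed among themselves, the genes nearest to Prl3d1 were also taken, a choice made after the values were seen. They were the serine protease inhibitor genes Serpinb9f (distance 0.708; log2 ratios -0.57, -1.31 and 2.46) and Serpinb9g (0.719; -0.52, -0.85 and 2.14), the steroid synthesis genes Star (0.797; -0.83, -0.76 and 1.69) and Cyp11a1 (1.06; -0.27, -1.27 and 1.90), and the transporter gene Slc6a12 (1.09; -0.28, -1.03 and 1.76). With limits also set after the values were seen, 8 of 23553 genes measured in all pairs lay below -0.5 in pairs 1 and 2 and above 2 in pair 3. These were Prl2c5, Prl7a1, Prl3d2, Prl2c1, Serpinb9f, Prl3d1, Prl4a1 and Serpinb9g.

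The authors' deposited table lists 40000 probes, 5 of the 13 member probes among them. It does not state its direction, and its log2 ratios correlated at -0.802 with the mean ratios of Cy5 over Cy3 across 39915 shared probes, so it is turned here. Turned, the authors' deposited table gives 0.52 for Prl3b1 (unadjusted p = 0.0229, adjusted p = 0.427), 0.35 for Tpbpa (adjusted p = 0.628) and -0.18, -0.35 and -0.51 for 3 Gcm1 probes. The Prl3d1, Prl7a1, Plac1 and Ascl2 probes are not among the rows used here.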

How the data were processed

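Amplified product from 350 ng of each RNA carried the Cy dyes, per the labels' protocols. The image software was Feature Extraction 10.7.3.1 and the arrays share 1 slide and scan, per the file headers. The intensity values used, deposited by the authors, are median spot and local background brightness; the deposited files also hold processed signals and their log10 ratio. The authors' deposited table holds log2 ratios, p-values and scores; the submitters' processing notes name limma, with settings not given in the sources used here. Here, background was corrected with normexp (offset 50), log2 ratios were normalized within arrays by loess (span 0.3; control and outlier spots at weight 0) and outlier spots dropped. A probe was kept (31603 in all) if at least 0.5 of its spots were well above background on 2 or more arrays in 1 of the channels, and a gene was read from its brightest probe. Channel levels were also scaled with Aquantile. Mean ratios were tested against 0 with limma 3.58.1 in R 4.3.3 (intercept only, two-sided, Benjamini-Hochberg), tested on simulated data. The SEs and p-values rest on the spread between these 3 pairs, moderated towards that of all genes or probes tested. Probes were named through RefSeq accessions with the GRCm38.p6 table (27656 of 29123 matched), which also gave gene coordinates and promoters (9 of 10 members). All members, and per list the called genes or the 3 smallest p-values, were named by rule. Members and lists were chosen with earlier results of these data known. The number of arrays limits the precision.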

Additional observations from a re-analysis of the deposited data

How the results depend on the processing

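Under 11 alternatives (loess span 0.02, processed signals, median centring, no background correction, normexp offset 10, no filter on dim probes, detection on all 3 arrays, mean of a gene's probes, and omission of each pair) no member passed the threshold. The median of the members' means ranged from -0.02 to 0.14 over the alternatives with 3 pairs and from -0.14 to 0.39 when 1 pair was omitted. With median centring the mean of Prl3d1 became -0.058, that of Plac1 -0.037 and that of Ascl2 -0.0085. Omission of 1 pair gave means between -1.10 and 0.68 for Prl3d1, -1.12 and 0.93 for Prl7a1, -0.17 and 0.23 for Plac1 and -0.54 and 0.49 for Ascl2. In the 9 settings with 3 pairs, the ratio in pair 3 stayed between 2.35 and 2.62 for Prl3d1 and between 2.80 and 3.19 for Prl7a1, and the ratios in pairs 1 and 2 stayed below 0. Of all genes, 326 passed in the main setting, 651 with median centring, 115 with offset 10, 201 with the mean of probes, and 0 with a span of 0.02, with processed signals or without any 1 pair (limma; in the settings with 0 calls, 2145 to 3831 genes had an unadjusted p below 0.05). In the yolk sac list 5 passed with median centring, 2 without the filter, and 0 with a span of 0.02, processed signals, offset 10 or 2 pairs. Rhox5 was the 1 call of the stem cell list with median centring. The cause was not tested. Tpbpa, Psg17 and Ctsq were too dim to be measured at these signals.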
